A study of Homo sapiens with 18 samples.

Results

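The genes described here are 4 genes of skin and hair structure, *LCE1C*, *PRR9*, *KRTAP3-1* and *SPINK6*, of 26702 genes in the deposited tables. They were chosen by name, and the names were picked because the recovered values of these same libraries rise from near 0 under Nutlin-3a or after a knockdown. Their levels and fold changes are therefore given as a description, with no test. The cells were U2OS, an established human osteosarcoma line, labelled wild-type for the siRFXANK samples. They had been transfected with siControl, siANKRA2 or siRFXANK and were then kept for 24 h in 10 µM Nutlin-3a or in the solvent DMSO, which gives 6 groups of 3 libraries, 18 in all. Nutlin-3a blocks MDM2, the ubiquitin ligase that keeps p53 low, and siANKRA2 and siRFXANK lower 2 related ankyrin repeat proteins. RNA was selected for poly(A) before sequencing. The labels do not say whether the 3 libraries of a group came from separate cultures. The errors derive from the standard errors of the authors' fit and are not a spread measured within each group. The spread behind them may be technical.

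The siRFXANK libraries were registered apart from the others, with labels of another form and no siControl libraries beside them, and batch and knockdown cannot be told apart in siRFXANK over siControl. The deposited tables hold comparisons and no value per library, and the depth of each library is unknown. Group means were recovered from the fold changes and their standard errors, in normalized counts, and are approximate. A group mean at or under 3 normalized counts was treated as a floor. A fold against such a group is given as "at least", rounded down, and no fold is given where both groups are at the floor. *ANKRA2* had a log2 fold change of -1.81 ± 0.18 (SE) in DMSO and -2.58 ± 0.12 in Nutlin-3a after siANKRA2. *RFXANK* had -2.96 ± 0.10 and -3.16 ± 0.10 after siRFXANK. The knockdown comparisons were read in this direction. The p53 targets *MDM2* and *CDKN1A* had log2 fold changes of 3.38 and 3.27 under Nutlin-3a in siControl cells. In siANKRA2 cells these were lower, 2.19 and 1.42. After siANKRA2, *MDM2* had -0.11 in DMSO and -1.30 in Nutlin-3a, and *CDKN1A* had 2.04 and 0.20. After siRFXANK, *MDM2* had 0.48 and 0.15, and *CDKN1A* had -0.06 and -0.88. The part of these differences in the values of the skin and hair genes was not tested.

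The outer epidermis is built by keratinocytes that fill with keratin and then form a cornified envelope, a layer of crosslinked proteins under the membrane. LCE1C (late cornified envelope 1C) and PRR9 (proline rich 9) are encoded in the epidermal differentiation complex on chromosome 1, which holds many genes for envelope proteins. KRTAP3-1 is a keratin-associated protein, of the family that embeds and crosslinks keratin filaments in the hair shaft, and SPINK6 is a secreted inhibitor of kallikrein proteases in the skin. None of these is a usual product of bone cells. The labels name the tissue of the siRFXANK samples as bone and their cell type as epithelial. The mesenchymal genes *VIM* and *COL1A1* had group means of 24062 to 55015 and of 72798 to 131426 normalized counts. Other mesenchymal and bone markers had 28145 to 35387 (*SPARC*), 4231 to 24291 (*FN1*), 376 to 579 (*RUNX2*) and only 24.5 to 76.5 (*COL1A2*). The basal keratinocyte genes *KRT5* and *TP63* had group means of 0.37 to 11.3 and of 1.35 to 6.33. Other markers of the keratinocyte and epithelial list were higher, with group means of 143 to 288 for the basal keratin gene *KRT14*, 93.8 to 180 for *EPCAM* and 6.75 to 50.6 for *CDH1*. Some keratin genes outside this list were abundant in every group, named after their values were seen. Group means were 19130 to 33033 for *KRT8*, 12123 to 25829 for *KRT18*, 9154 to 35877 for *KRT17* and 11827 to 25749 for *KRT81*. The cells thus held much keratin RNA without Nutlin-3a or a knockdown. Of the 8 keratinocyte and epithelial markers, 7 were in all tables, and their summed group means ranged from 1762 in siControl DMSO to 2573 in siRFXANK DMSO, most of it *KRT10*. Without *KRT10* the sum was 343 in siControl DMSO, 461 in siControl Nutlin-3a, 485 in siANKRA2 DMSO and 454 in siANKRA2 Nutlin-3a. It was 370 in siRFXANK DMSO and 265 in siRFXANK Nutlin-3a. The part of other cells in the values below was not tested. In RNA from whole cultures, more cells with a transcript and more RNA per cell cannot be told apart.

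In GENCODE 29 on GRCh38, the build (hg38) named in the submitters' processing notes, *LCE1C* spans bases 152804835 to 152806628 of chromosome 1 (minus strand) and *PRR9* bases 153217584 to 153219317 of that chromosome (plus strand). Their starts are 411 kb apart. *KRTAP3-1* spans bases 41008521 to 41019324 of chromosome 17 (minus strand), and *SPINK6* bases 148202794 to 148215137 of chromosome 5 (plus strand). The coding transcript of *KRTAP3-1* spans 41008521 to 41009114, and the rest of the locus belongs to a spliced transcript without annotated coding sequence. No other annotated gene overlaps any of these loci. Of the stretches of 31 bases in the longest transcript, 32.6% occur in other genes for *LCE1C*, chiefly *LCE1B*, 4.47% for *KRTAP3-1* and 0% for *PRR9* and *SPINK6*. Reads of *LCE1C* can thus be shared with its paralogs, and its values are uncertain to that extent.

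The 250 bases before the RefSeq start of each gene (GRCh38.p14) are shown because the 4 genes did not share a pattern across the groups and the sequences let their control regions be compared. They are chr1:152806652-152806901 on the minus strand for *LCE1C*, chr1:153217334-153217583 on the plus strand for *PRR9*, chr17:41009129-41009378 on the minus strand for *KRTAP3-1* and chr5:148202528-148202777 on the plus strand for the first of 2 starts of *SPINK6*. All are written 5′ to 3′ on the strand of the gene, and capitals mark matches to TATANA, the letters of a TATA box, and to TGANTCA, those of an AP-1 site.
LCE1C: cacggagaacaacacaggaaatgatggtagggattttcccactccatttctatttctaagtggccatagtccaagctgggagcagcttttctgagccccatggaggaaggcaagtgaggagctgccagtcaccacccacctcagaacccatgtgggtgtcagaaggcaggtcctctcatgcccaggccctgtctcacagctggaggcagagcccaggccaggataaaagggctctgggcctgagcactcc
PRR9: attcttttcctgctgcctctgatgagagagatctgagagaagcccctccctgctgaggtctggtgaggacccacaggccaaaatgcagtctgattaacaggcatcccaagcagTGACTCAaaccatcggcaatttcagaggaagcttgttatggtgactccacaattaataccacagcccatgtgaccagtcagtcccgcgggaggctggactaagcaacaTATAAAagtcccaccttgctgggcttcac
KRTAP3-1: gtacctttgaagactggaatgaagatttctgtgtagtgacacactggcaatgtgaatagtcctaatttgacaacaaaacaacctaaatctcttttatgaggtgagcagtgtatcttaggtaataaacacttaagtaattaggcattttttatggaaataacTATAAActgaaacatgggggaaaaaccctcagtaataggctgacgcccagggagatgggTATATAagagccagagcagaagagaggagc
SPINK6: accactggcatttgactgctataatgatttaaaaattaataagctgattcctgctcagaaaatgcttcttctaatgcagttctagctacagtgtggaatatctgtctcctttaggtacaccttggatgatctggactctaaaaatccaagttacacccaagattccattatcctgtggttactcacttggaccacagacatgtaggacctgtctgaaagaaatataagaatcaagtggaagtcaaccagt
*PRR9* held TATANA 29 bases before its start and TGANTCA at 137 bases. *KRTAP3-1* held TATANA at 89 and at 30 bases, the latter match reading on both strands. Neither motif matched in *LCE1C* or *SPINK6*. On either strand, TATANA occurs in 17.7% and TGANTCA in 6.57% of the same 250-base windows of 35116 promoters. GTTGCC, letters of the X-box bound by RFX proteins, occurs in 10.2% of the windows and the p53 decamer motif in 5.57%, and neither is in any of the printed windows. The share of G and C was 56.4% for *LCE1C*, 51.2% for *PRR9*, 38.8% for *KRTAP3-1* and 38.8% for *SPINK6*.

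The standard error of a recovered log2 group mean was 0.08 to 0.22 for group means of at least 16.5 normalized counts and 0.35 to 1.18 for lower ones. *LCE1C*, whose protein is laid down late in cornification, was near 0 in DMSO and high in Nutlin-3a under every siRNA. Its recovered group mean was 1.66 normalized counts in siControl DMSO, 0.193 in siANKRA2 DMSO and 3.32 in siRFXANK DMSO. In Nutlin-3a it was 512 in siControl, 55.5 in siANKRA2 and 287 in siRFXANK. The 3 Nutlin-3a groups thus stood apart from the DMSO groups, and siANKRA2 was the lowest of them. The deposited log2 fold change under Nutlin-3a was 8.27 ± 0.65 (SE) in siControl and 8.17 ± 1.19 in siANKRA2 cells. The siANKRA2 level in DMSO corresponds to 0.58 counts summed over 3 libraries, so this second ratio has almost no base. As bounds, the Nutlin-3a level exceeded the DMSO level by at least 170-fold in siControl and by at least 18.5-fold in siANKRA2 cells. The derived fold in siRFXANK cells was 86.3, against a DMSO mean just above the floor. Between siRNAs in Nutlin-3a, where all groups were well above the floor, *LCE1C* was 9.21-fold lower after siANKRA2 (log2 fold change -3.20 ± 0.15) and 1.78-fold lower after siRFXANK (-0.84 ± 0.11). In DMSO both siANKRA2 and siControl were at the floor and no fold is given, and the difference between siRFXANK and siControl, 1.0 ± 0.80 on the log2 scale, was less than 2 SE.

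*PRR9*, a small proline-rich protein gene of the epidermal differentiation complex, showed another pattern, with high levels after siANKRA2 alone. Its group means were 493 normalized counts in siANKRA2 DMSO and 1160 in siANKRA2 Nutlin-3a. They were 0.663 in siControl DMSO, 4.01 in siControl Nutlin-3a, 0.357 in siRFXANK DMSO and 4.43 in siRFXANK Nutlin-3a. The siANKRA2 groups were far above all others, and siControl and siRFXANK in Nutlin-3a differed by less than 2 SE (0.14 ± 0.59 on the log2 scale). Set against siControl, *PRR9* in siANKRA2 cells was higher by at least 164-fold in DMSO, with a deposited log2 fold change of 9.54 ± 1.03, and by 289-fold in Nutlin-3a (8.18 ± 0.43). The siControl Nutlin-3a mean behind the 289-fold value, 4.01, was just above the floor. With the deposited mean as a constraint on the recovery it was 1.82, under the floor, where only a bound could be given. Nutlin-3a added a 2.35-fold difference within siANKRA2 cells (1.24 ± 0.12). Within siControl cells the deposited value was 2.60 ± 1.11, but the group means corresponded to 1.99 and 12 counts summed over 3 libraries, and the bound was only at least 1.33-fold.

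*KRTAP3-1*, the hair shaft gene, was the only one of the 4 to be above the floor after both knockdowns in DMSO and at the floor in siControl cells with and without Nutlin-3a. Its group means were 58.5 normalized counts in siANKRA2 DMSO, 37.4 in siANKRA2 Nutlin-3a, 22.1 in siRFXANK DMSO and 6.18 in siRFXANK Nutlin-3a. They were 0.668 in siControl DMSO and 0.361 in siControl Nutlin-3a. All knockdown groups lay above both siControl groups, the siANKRA2 groups above the siRFXANK groups. In DMSO the bounds were at least 19.4-fold for siANKRA2 and at least 7.35-fold for siRFXANK over siControl, and in Nutlin-3a at least 12.4-fold and at least 2.05-fold. Within each knockdown the Nutlin-3a group was the lower one, by 1.56-fold in siANKRA2 cells (log2 fold change -0.65 ± 0.22) and by a derived 3.57-fold in siRFXANK cells (-1.84 ± 0.40). Its deposited mean, 104 normalized counts, was 1.77 times its highest recovered group mean, so the scale of its group means is less certain than that of most genes. With the deposited mean as a constraint on the recovery, its siControl DMSO mean was 3.32, just above the floor. The scale is also less certain for *PRR9* and *SPINK6*, whose deposited means were 0.454 and 3.15 times the mean of their group means.

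*SPINK6*, the protease inhibitor gene, was higher both under Nutlin-3a and after siANKRA2. Its group means were 2.33 normalized counts in siControl DMSO, 39.3 in siControl Nutlin-3a, 50.0 in siANKRA2 DMSO and 117 in siANKRA2 Nutlin-3a. They were 1.67 in siRFXANK DMSO and 16.5 in siRFXANK Nutlin-3a. The highest group was thus the one with both siANKRA2 and Nutlin-3a, and the groups with only 1 of the 2 differed by less than 2 SE (0.35 ± 0.21 on the log2 scale). In siControl cells *SPINK6* was at least 13.1-fold higher under Nutlin-3a (deposited log2 fold change 4.07 ± 0.57), and in siANKRA2 cells 2.34-fold higher (1.23 ± 0.18). The siANKRA2 level exceeded that of siControl by at least 16.6-fold in DMSO and by 2.98-fold in Nutlin-3a. After siRFXANK it was 2.39-fold lower in Nutlin-3a (-1.26 ± 0.27), and the derived Nutlin-3a level in siRFXANK cells was at least 5.48-fold above DMSO. With the deposited mean as a constraint on the recovery, the siControl DMSO mean of *SPINK6* was 7.35, above the floor. The difference between the log2 responses of siANKRA2 and siControl cells was -2.85 ± 0.60 for *SPINK6*, -1.36 ± 1.11 for *PRR9*, 0.24 ± 1.58 for *KRTAP3-1* and -0.10 ± 1.36 for *LCE1C*, and each rests on at least 1 group at the floor.

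**Figure D1:**
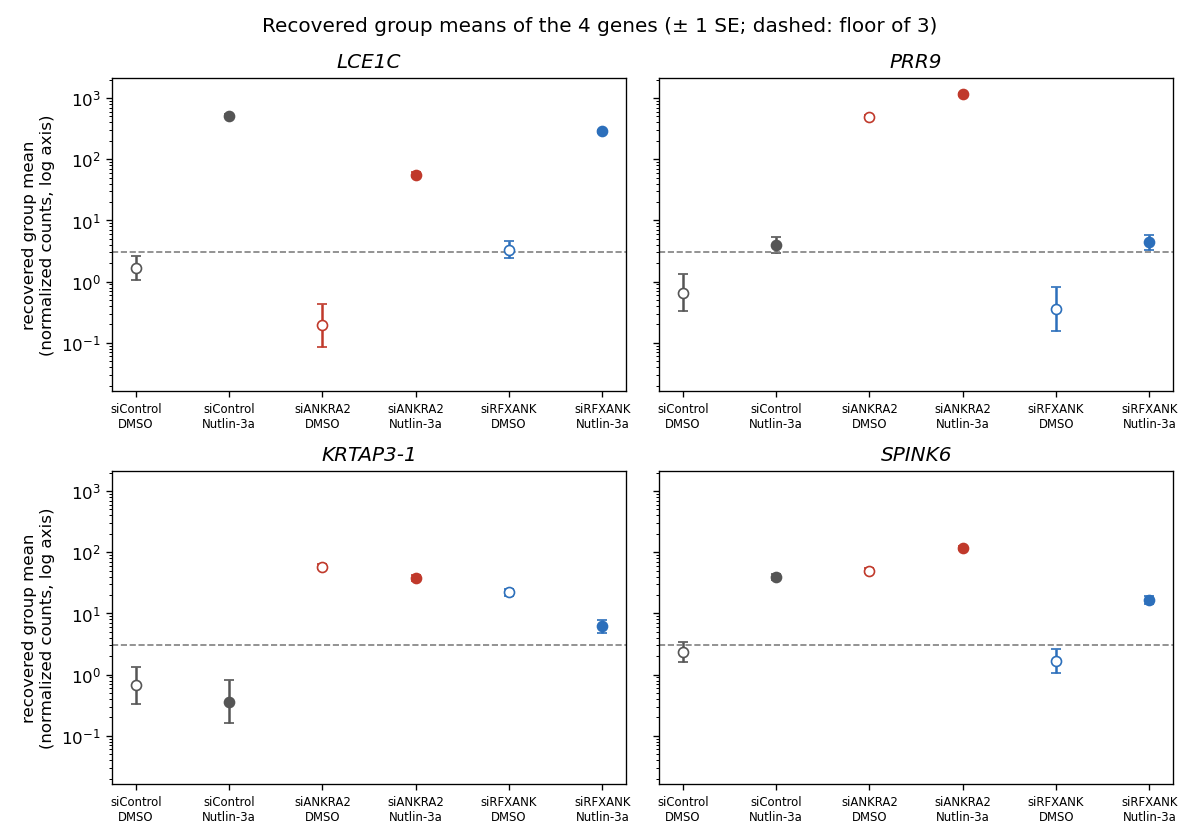
Recovered group means in normalized counts (log axis) of *LCE1C*, *PRR9*, *KRTAP3-1* and *SPINK6* in the 6 groups, with bars of 1 SE of the log2 mean, open points for DMSO and filled points for Nutlin-3a. The dashed line is the floor of 3, and *LCE1C* is high in the Nutlin-3a groups, *PRR9* in the siANKRA2 groups and *KRTAP3-1* in the knockdown groups.

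**Figure D2:**
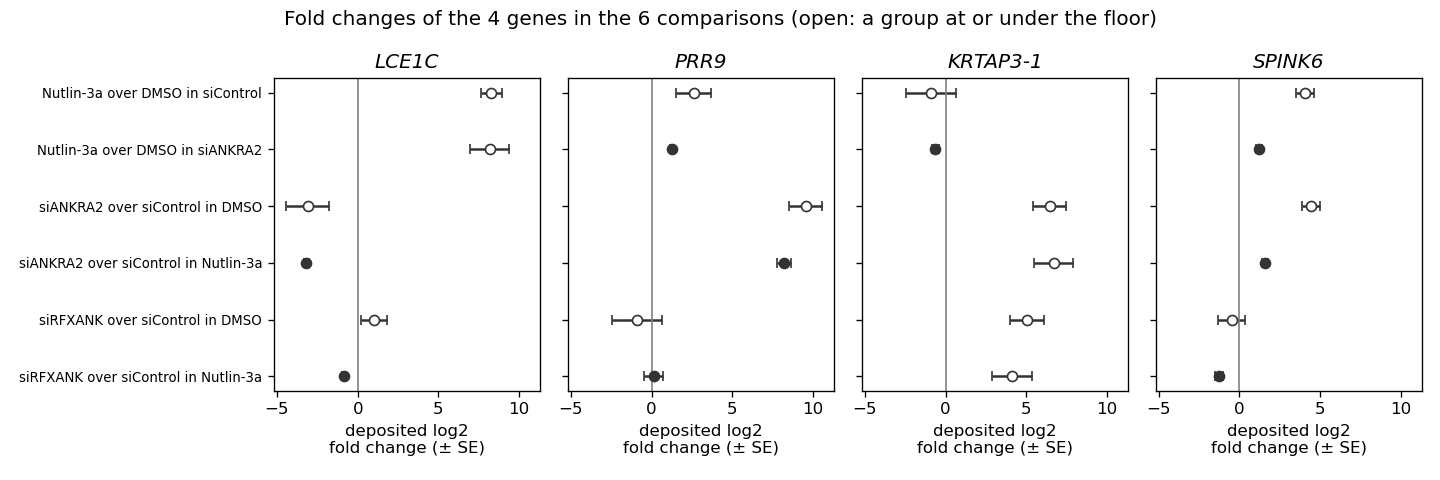
Deposited log2 fold changes with their SE for the same genes in the 6 comparisons, with open points where a group is at or under the floor. The points for *PRR9* after siANKRA2 lie at 9.54 and 8.18, whereas those after siRFXANK lie at -0.89 and 0.14.

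Set per kb of annotated exon, the highest group means were 944 normalized counts per kb for *PRR9* in siANKRA2 Nutlin-3a, 739 for *LCE1C* in siControl Nutlin-3a, 160 for *SPINK6* in siANKRA2 Nutlin-3a and 80.6 for *KRTAP3-1* in siANKRA2 DMSO. The order of these levels is not fixed by the data. With the deposited mean as a constraint on the recovery they were 428, 612, 502 and 401, and with no lower limit in the variance formula 997, 1470, 160 and 98.4, each in the same groups. At an adjusted p under 0.05 in the authors' tests, 3 of the 4 genes were higher under Nutlin-3a in siControl cells, where 21.9% of 25909 genes were called higher and 21.2% lower. In siANKRA2 cells 3 were higher and 1, *KRTAP3-1*, lower, beside 15.5% and 17% of 22738 genes. After siANKRA2, 3 were higher and *LCE1C* was lower in DMSO, beside 24.3% and 24.5% of 26702 genes, and likewise in Nutlin-3a, beside 24.6% and 25.5%. After siRFXANK, *KRTAP3-1* was higher in DMSO, beside 20.9% higher and 21.2% lower of 25909 genes. In Nutlin-3a *KRTAP3-1* was higher and *LCE1C* and *SPINK6* were lower, beside 19.8% and 19.6% of 25116 genes. These comparisons chose the 4 genes, so nothing is read from the counts.

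The shares given above over all genes are the background for every count of called genes below, by comparison and direction. The other genes of skin and hair in the tables were taken from 9 lists of families and functions, 103 genes without the 4 above. Under Nutlin-3a in siControl cells, 49 of 102 tested rose and 5 fell, beside 21.9% and 21.2% over all genes, with a median log2 fold change of 0.83 beside 0.02 over all genes. In siANKRA2 cells 25 of 80 rose and 8 fell. After siANKRA2, 32 of 103 rose and 13 fell in DMSO, whereas 21 rose and 27 fell in Nutlin-3a. After siRFXANK, 15 of 102 rose and 14 fell in DMSO, and 8 of 101 rose and 33 fell in Nutlin-3a, with a median of -0.34. Over the 80 genes in all tables, the medians were 0.83 for Nutlin-3a in siControl cells and -0.36 for siRFXANK in Nutlin-3a, and 0.61 and -0.30 with group means set to at least 3. The lists thus leaned upwards under Nutlin-3a and, among Nutlin-3a-treated cells, downwards after siRFXANK.

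Of the other late cornified envelope genes, 3 of 4 tested rose under Nutlin-3a in siControl cells and 3 of 3 in siANKRA2 cells. Their median log2 fold change in siControl cells was 5.98 over all 4. Over the 3 in all tables it was 6.56, and 5.36 with group means set to at least 3. In the authors' DESeq2 tests 0 of 4 were called after either knockdown in DMSO, and 0 had an unadjusted p under 0.05. The 3 in all tables were at the floor in every DMSO group, so a call was hardly possible and no lack of effect is read from this. *LCE1B* had group means of 1.31 normalized counts in siControl DMSO and 124 in siControl Nutlin-3a, at least 41.1-fold higher. *LCE1E* was at least 41.2-fold and *LCE1F* at least 18.9-fold higher, each from a DMSO level at the floor. In Nutlin-3a, the same 3 genes fell after siANKRA2, by 6.70-fold, 3.26-fold and 7.91-fold in that order. After siRFXANK they were 1.43-fold, 3.05-fold and 6.09-fold lower. These genes lie within 30.3 kb of *LCE1C*, and 10.6% of *LCE1B*, 17.4% of *LCE1E* and 30.3% of *LCE1F* is shared with other genes. Among other genes of the epidermal differentiation complex, 3 of 7 tested rose and 1 fell under Nutlin-3a, with a median log2 fold change of 0.83. *IVL*, which encodes involucrin, an early scaffold of the envelope, rose 9.85-fold in siControl cells and 2.92-fold in siANKRA2 cells. *FLG*, the filaggrin gene, was at least 2.57-fold lower after siANKRA2 in Nutlin-3a, and *SPRR2D*, a small proline-rich envelope gene, at least 4.94-fold lower after siRFXANK in DMSO.

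Of the keratin-associated protein genes, 4 of 8 tested rose after siANKRA2 in DMSO and 4 of 8 in Nutlin-3a. Their median log2 fold change in DMSO was 3.54 over all 8. Over the 6 in all tables it was 3.85, and 2.49 with group means set to at least 3. *KRTAP2-3* had group means of 215 normalized counts in siControl DMSO, 897 in siControl Nutlin-3a, 4674 in siANKRA2 DMSO and 4219 in siANKRA2 Nutlin-3a, so that it rose 21.8-fold after siANKRA2 in DMSO. It was not near 0 in siControl cells, and 43.3% of its transcript is shared, chiefly with *KRTAP2-4*. The other risers have deposited means under 10 and were named after their values were seen: *KRTAP2-4* was at least 7.51-fold, *KRTAP19-5* at least 6.37-fold and *KRTAP21-2* at least 4.92-fold higher in DMSO. After siRFXANK in DMSO, where *KRTAP3-1* was also higher, *KRTAP2-3* rose 1.44-fold and was the only other gene of the family called. Of the SPINK family, *SPINK1*, a trypsin inhibitor gene named after its values were seen, was at least 5.53-fold higher after siANKRA2 in DMSO. *SPINK5* was called lower there, and *SPINK13* was not called in any comparison. Under Nutlin-3a, 0 of 3 were called by the authors' DESeq2 tests in siControl and siANKRA2 cells, and 0 had an unadjusted p under 0.05. Their group means in these cells were only 0.998 to 20.6 normalized counts, which left little room for a call.

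**Figure D3:**
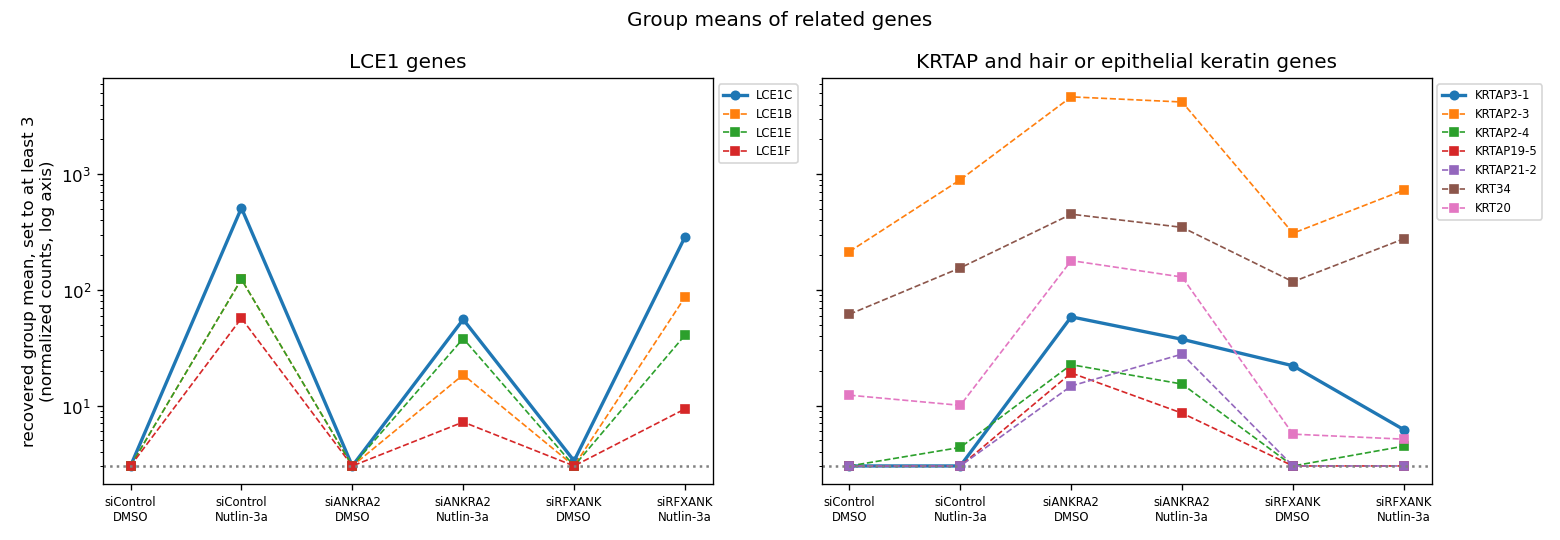
Recovered group means (normalized counts, log axis, values under 3 drawn at 3) of *LCE1C* and 3 other LCE1 genes on the left, and of *KRTAP3-1*, 4 other KRTAP genes, *KRT34* and *KRT20* on the right. Lines join the groups only to guide the eye. The LCE1 genes leave the floor in Nutlin-3a, and the KRTAP genes are highest after siANKRA2.

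Of the keratins, which form the intermediate filaments of epithelia and hair, 12 of 31 rose and 2 fell under Nutlin-3a in siControl cells, with a median log2 fold change of 0.37. After siANKRA2, 12 of 31 rose and 3 fell in DMSO, beside 24.3% and 24.5% over all genes. After siRFXANK in Nutlin-3a, 3 rose and 12 fell, beside 19.8% and 19.6%. *KRT20*, a keratin of gut epithelium, rose 14.6-fold after siANKRA2 in DMSO and 12.9-fold in Nutlin-3a. *KRT6A*, a keratin of wounded epidermis, rose 9.67-fold under Nutlin-3a in siControl cells, and 52.7% of its transcript is shared with other genes. *KRT15*, a keratin of basal cells, rose 8.42-fold in siControl cells and 3.63-fold in siANKRA2 cells.

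Of 16 cornification enzymes and junction proteins, 10 rose under Nutlin-3a in siControl cells, beside 21.9% over all genes, and 7 of 13 tested rose in siANKRA2 cells, beside 15.5%. The median log2 fold change in siControl cells was 1.11 over all 16, and 1.31 over the 13 in all tables, with or without group means set to at least 3. *DSG3*, a desmosomal cadherin, had group means of 0.337 normalized counts in siControl DMSO and 44.6 in siControl Nutlin-3a, at least 14.8-fold higher. *ABCA12*, a lipid transporter of the skin barrier, rose 51.9-fold, and *PPL*, the periplakin gene, 13.6-fold. After siANKRA2 in Nutlin-3a all 3 of these fell, *DSG3* by 2.30-fold, *ABCA12* by 2.77-fold and *PPL* by 2.89-fold. Over the whole list, 5 of 16 were lower and 3 higher in this comparison, beside 25.5% and 24.6% over all genes. Of 13 regulators of epidermal and hair differentiation, 6 rose and 1 fell under Nutlin-3a in siControl cells, beside 21.9% and 21.2% over all genes, with a median of 0.26. *GRHL3*, a transcription factor of late epidermal differentiation, rose from 7.94 to 433 normalized counts, 54.5-fold, and after siANKRA2 in DMSO by 6.64-fold. *EDA2R*, a receptor of the ectodysplasin family, rose 3.19-fold under Nutlin-3a in siControl cells. The transcription factor gene *MAF* rose 4.33-fold there and was 5.16-fold lower after siANKRA2 in Nutlin-3a. After siANKRA2, 5 of the 13 regulators were higher and 3 lower in DMSO, and 3 were higher and 3 lower in Nutlin-3a.

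Of 13 S100 genes, small calcium-binding proteins, 9 rose under Nutlin-3a in siControl cells, beside 21.9% over all genes, with a median log2 fold change of 0.93. *S100A14* rose 4.48-fold and *S100A2* 3.03-fold. *S100A10* rose 2.14-fold under Nutlin-3a and fell 4.36-fold after siANKRA2 in Nutlin-3a. The kallikreins, proteases of which several act in skin and are inhibited by SPINK6, had 3 of 8 members higher and 1 lower under Nutlin-3a in siControl cells, with a median log2 fold change of 0.46. *KLK4*, with a deposited mean under 10 and named after its values were seen, rose at least 4.87-fold there and 8.50-fold in siANKRA2 cells. *KLK13* and *KLK10* were 2.40-fold and 1.98-fold lower after siANKRA2 in Nutlin-3a. *KLK1* was 1.72-fold lower after siANKRA2 in DMSO.

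Genes whose starts lie within 500 kb of those of the 4 genes numbered 58. Near *LCE1C*, 6 of 12 tested rose and 2 fell under Nutlin-3a in siControl cells, and the 3 with the largest fold changes were *LCE1F*, *LCE1B* and *LCE1E*. Near *PRR9*, where the window overlaps that of *LCE1C*, 5 of 25 rose and 5 fell after siANKRA2 in DMSO, close to the shares over all genes given above. *LOR*, the loricrin gene, 42.1 kb away from *PRR9* and chosen after its values were seen, rose 3.56-fold there. Near *KRTAP3-1*, 8 of 19 rose and 1 fell after siANKRA2 in DMSO. They included *KRTAP2-3*, 40.8 kb away, *KRT20*, 134 kb away, and the hair keratin gene *KRT34*, 363 kb away, which rose 7.33-fold. Near *SPINK6*, 3 of 10 rose and 2 fell in the same comparison. *JAKMIP2* was 3.56-fold lower, *C5orf46* 2.26-fold higher and *FBXO38* 1.36-fold higher after siANKRA2 in DMSO.

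**Figure D4:**
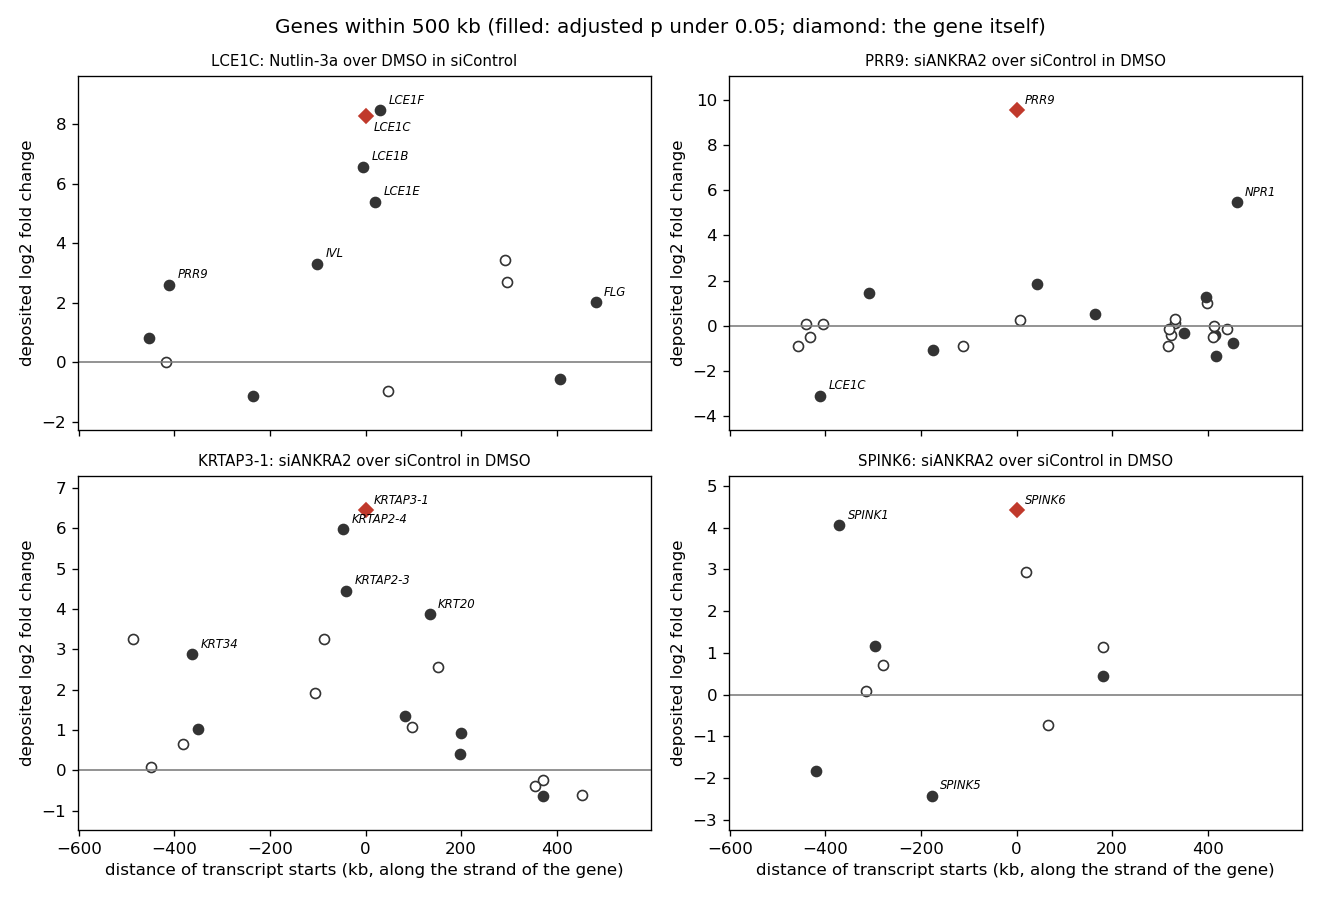
Deposited log2 fold change against the distance between transcript starts (kb) for genes within 500 kb, for *LCE1C* under Nutlin-3a in siControl cells and for the other 3 genes after siANKRA2 in DMSO. Filled points have an adjusted p under 0.05 and the diamond is the gene itself. *PRR9* stands at 9.54 among neighbours that mostly lie near 0, whereas *KRTAP2-4* and *KRTAP2-3* lie close to *KRTAP3-1*.

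The genes whose 6 group means followed each of the 4 most closely were found by the distance between log2 group means, set to at least 3 and centred on siControl DMSO, over 18433 genes. This likeness is a description over 6 groups that share libraries. Closest to *LCE1C* was *PADI4*, a peptidylarginine deiminase gene, at a distance of 0.44 log2 units. Its group means were 552 normalized counts in siControl Nutlin-3a, 46.1 in siANKRA2 Nutlin-3a and 228 in siRFXANK Nutlin-3a, with 0.378 to 3.33 in DMSO. Next were *TREM2*, a receptor gene of myeloid cells (1.18), and *H3.Y*, a primate histone variant gene (1.70). The paralogs *LCE1B*, *LCE1E* and *LCE1F* came at ranks 31, 40 and 166. They too were at the floor in every DMSO group and highest in siControl Nutlin-3a. Their levels there were lower, 124, 124 and 56.9 normalized counts beside 512 for *LCE1C*, which adds to the distance. Closest to *PRR9* were *PSG3*, a pregnancy-specific glycoprotein gene (3.63), *ODAPH*, an enamel protein gene (4.12), and *IL23A*, a cytokine gene (4.5). These distances were large, but the distance is not scaled and grows with the size of the changes of a gene. A gene with the pattern of *PRR9* at a lower level would also lie far away, so no lack of like genes is read from them. Closest to *KRTAP3-1* were the adaptor gene *DAPP1* (1.14), the long noncoding RNA gene *DIRC3* (1.37) and the galactosyltransferase gene *B3GALT1* (1.72). *DAPP1* had 78.4 normalized counts in siANKRA2 DMSO, 20.9 in siRFXANK DMSO and 4.0 in siControl DMSO. Closest to *SPINK6* were *CLTRN*, the collectrin gene (1.22), and the glycoprotein genes *PSG5* (1.73) and *PSG4* (1.89). Of the transcripts of *PSG3*, *PSG5* and *PSG4*, 51.3%, 45.2% and 16.8% is shared with other genes, so their values are uncertain.

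**Figure D5:**
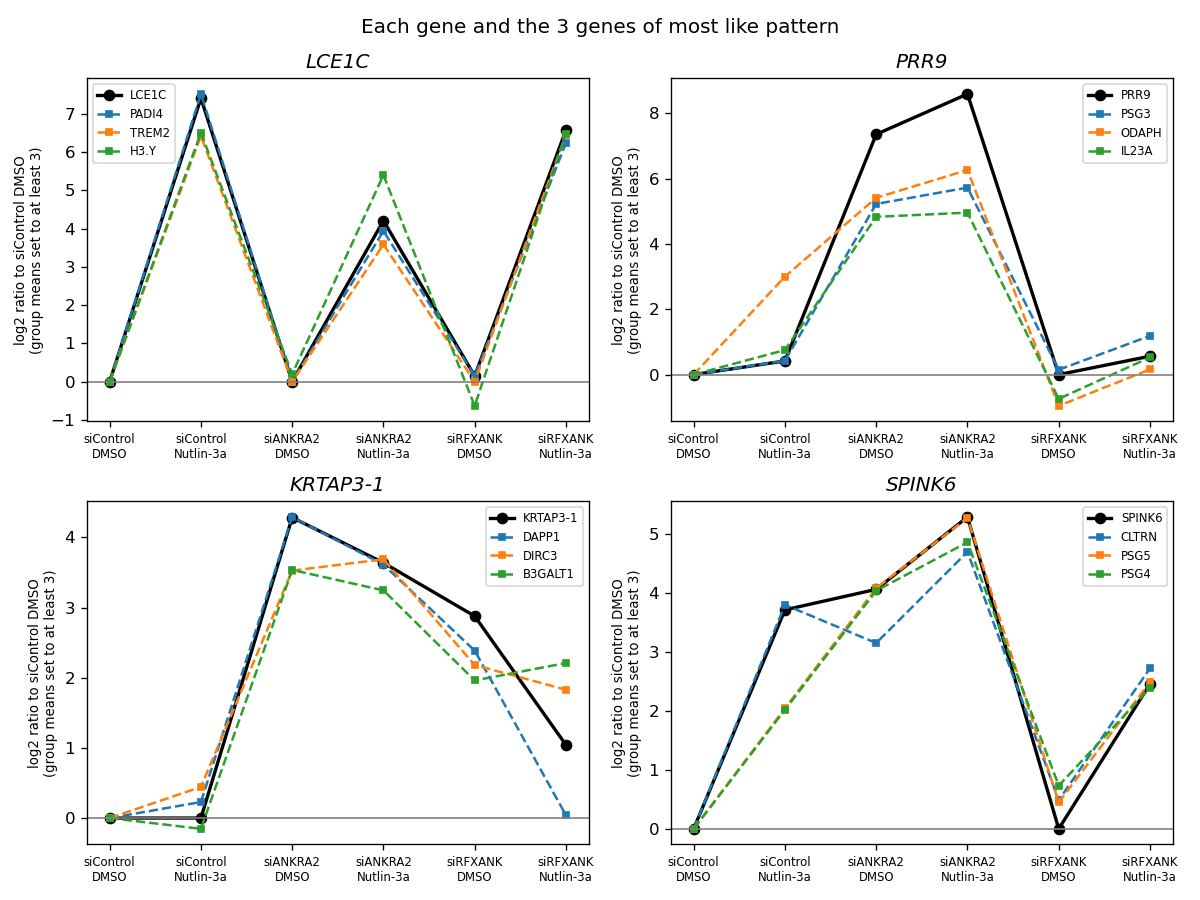
Log2 ratio of each group mean to that of siControl DMSO, with means set to at least 3, for each of the 4 genes (black) and its 3 closest genes (dashed). Lines only guide the eye. *PADI4* runs beside *LCE1C* in all groups, and the genes closest to *PRR9* stay below it in the siANKRA2 groups.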

How the data were processed

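RNA-seq of U2OS cells was analysed from 6 deposited comparison tables, with 3 libraries in each of 6 groups. The authors' processing notes name bcl2fastq 2.20.0.422, Trimmomatic 0.39, cutadapt 2.10, FastQC 0.11.9, SAMtools 1.10, Picard, featureCounts 1.6.5, DESeq2 1.20.0 and the build hg38. The aligner, the annotation and the use of strand in counting are not given in the sources used here. For every gene the authors deposited a mean normalized count, a signal value whose libraries are not given. Beside it stand the log2 fold change and its standard error, both deposited on the log2 scale, and the deposited p-value and adjusted p-value. These are the authors' own comparisons and are used as such, since nothing per library was analysed here. Library depth is unknown. Tables held 22738 to 26702 genes, 22738 of them in all 6, and 26659 IDs were in GENCODE 29.

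Group means were recovered per gene by fitting scale and dispersion to the 6 standard errors with least squares. The squared error of a log2 group mean was modelled as 1/mean plus the dispersion, over n times ln2², where n = 3 and where 0.5 replaced smaller means. The fitted squared standard errors missed the squares of the deposited ones by at most 2.28% for the 4 genes. The median over 18456 genes with a deposited mean of at least 10 was 0.857%, taking the largest of the 6 misses of each gene. The arithmetic was tested on simulated counts. The Nutlin-3a response in siRFXANK cells was derived from the recovered means. Calls are the authors' adjusted p-values under 0.05, and all comparisons against siControl share its libraries. The members, lists and rules were chosen with earlier results of these data known. Genes named are the 4 genes, the knockdown and p53 checks, per list and per 500 kb window the 3 called genes with a deposited mean of at least 10 and the largest absolute fold change in any comparison, and the 3 genes of most like pattern. Protein composition of the 4 genes was planned and not analysed here, and the promoter windows came from RefSeq. Alternatives were other floors, thresholds, windows, minimum means, a constraint on the deposited mean and another likeness measure.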

Additional observations from a re-analysis of the deposited data

Results flagged for a closer look

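The deposited mean of *KRTAP3-1* was 1.77 times its highest recovered group mean, 104 against 58.5 normalized counts. It was flagged because a mean over the 6 groups cannot exceed the highest of them, and the deposited mean is a column that the comparisons do not use. Of 13103 genes with a deposited mean of at least 100, 971 had a mean above their highest group mean, and 6 had a larger quotient than *KRTAP3-1*. *SPINK6* was also among the 971, with 119 against 117 normalized counts, a quotient of 1.02, and 840 genes had a larger one. Named after their values were seen, *CSH2* and *ANKRA2* had the largest quotients. *ANKRA2* had a deposited mean of 31568 against a highest group mean of 516, a quotient of 61.1. The libraries behind the deposited mean are not given in the sources used here, and the part of other libraries in it was not tested. For *LCE1C*, *PRR9* and *SPINK6* the deposited mean was 0.828, 0.454 and 3.15 times the mean of the 6 group means, where the 1st and 99th percentiles over genes with a deposited mean of at least 100 were 0.615 and 1.49.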

How the results depend on the processing

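No paired analysis was possible because values per library are not in the tables used here, and for the same reason no library was left out and no count model was run. The bounds, in the order *LCE1C* under Nutlin-3a in siControl cells, *PRR9* and *KRTAP3-1* after siANKRA2 in DMSO, *KRTAP3-1* after siRFXANK in DMSO, and *SPINK6* under Nutlin-3a in siControl cells and after siANKRA2 in DMSO, stayed above 1 under every alternative run. With a floor of 1 normalized count they were 308, 493, 58.5, 22.1, 16.8 and 21.4, and with a floor of 10 they were 51.2, 49.3, 5.85, 2.21, 3.93 and 5.0. At a floor of 1 the values of *LCE1C* and *SPINK6* are folds and not bounds, since their siControl DMSO means of 1.66 and 2.33 exceed it. With the deposited mean as a constraint the values, in the same order, were 141, 74.5, 87.6, 33.0, 16.8 and 21.4. The fitted squared standard errors of *LCE1C*, *PRR9*, *KRTAP3-1* and *SPINK6* then missed the squares of the deposited ones by up to 20.7%, 113%, 75.7% and 64.5%. Under the constraint the siControl DMSO means of *KRTAP3-1* and *SPINK6* were 3.32 and 7.35, above the floor. The values of these genes are then folds and not bounds. With no lower limit in the variance formula, *LCE1C* was at 308, since its siControl DMSO mean then exceeded the floor, and *KRTAP3-1* at 23.8 and 8.97. Of the other bounds, those of *KRTAP3-1* after siRFXANK in Nutlin-3a and of *PRR9* under Nutlin-3a in siControl cells ended at a floor of 10, where both groups are at the floor, and with the deposited mean as a constraint the former was 10.2 while the latter also ended. The highest group means of *LCE1C*, *PRR9*, *KRTAP3-1* and *SPINK6* were 424, 526, 291 and 368 normalized counts under the constraint and 1017, 1226, 71.3 and 117 with no lower limit.

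Counts of list genes called stayed within 1.5 times at a threshold of 0.01, at a minimum mean of 10 and with recomputed adjusted p-values. A minimum of 1 for the absolute log2 fold change left 34 of 54 under Nutlin-3a in siControl cells, 12 of 33 in siANKRA2 cells, 28 of 48 after siANKRA2 in Nutlin-3a, and 8 of 29 and 18 of 41 after siRFXANK in DMSO and Nutlin-3a. The same limit left 16, 5, 17, 15, 3 and 6 of 26, 14, 26, 23, 14 and 19 neighbours called, in the order Nutlin-3a in siControl and siANKRA2 cells, siANKRA2 in DMSO and Nutlin-3a, and siRFXANK in DMSO and Nutlin-3a. By construction the neighbours called changed with the window, to 9, 6, 12, 11, 6 and 8 within 250 kb and to 72, 44, 69, 81, 49 and 53 within 1000 kb. A threshold of 0.01 left 17 under Nutlin-3a in siControl cells. By Pearson's correlation in place of distance, 1 of the 3 closest genes of *LCE1C* and 0 of 3 for each other gene were shared, and the cause was not tested.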
